A study of Mus musculus with 18 samples.

Results

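The insulin-like growth factor (IGF) system was followed here through 10 genes, the ligands Igf1 and Igf2, the receptors Igf1r and Igf2r, and the binding proteins Igfbp2, Igfbp3, Igfbp4, Igfbp5, Igfbp6 and Igfbp7. They were found by symbol among the 27743 gene rows of the expression table, and all 10 passed the filter on low values that left 13078 genes for testing. The genes were chosen by family, but with measured values of these libraries known, among them the lower Igfbp5 level of D100L150 flaps. Values of D100L150 against Control are therefore given as a description, from which no test is drawn, and the other tests below are not independent evidence. The study placed mesh spacers made by near-field electrostatic printing beneath mouse skin flaps and sequenced RNA from the skin at day 7. Its 6 groups of 3 libraries were the spacer groups D15L100, D15L150, D15L200, D100L150 and D150L150 and a Control group whose flaps received no treatment. The meshes differed in diameter and spacing, but the labels give neither the meaning nor the unit of the numbers behind D and L, so the groups are called by their names. All flaps, Control included, were raised surgically, and no source used here states strain, sex or age. Nothing in the labels says whether the libraries of a group stand for separate mice, so the p-values measure the spread between libraries, which may be partly technical.

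IGF1 and IGF2 are secreted growth factors that act through the receptor tyrosine kinase IGF1R. IGF2R, also the mannose 6-phosphate receptor, takes up IGF2 for breakdown in lysosomes and does not signal as IGF1R does. IGF binding proteins hold the ligands in the tissue, shield them from the receptors or present them to the receptors, and are cut by proteases that free the ligand. In skin the dermis is a main source of IGF1 while keratinocytes carry the receptor, and in muscle both ligands take part in growth and repair.

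The libraries held 28422344 to 35327357 counted fragments as recovered from the steps of the values, so depth differed by at most 1.24-fold. Values are FPKM, fragments per kilobase of gene scaled to sequencing depth, and can be set side by side between genes. Every library carried the basal epidermal keratin Krt14, at 788 to 4651 FPKM, but also the skeletal muscle actin Acta1, at 731 to 5972 FPKM, so the tissue included muscle besides skin. The libraries Control 1 and D100L150 1 stood apart. Their correlations over all tested genes with either library of their own group lay at 0.92 to 0.94, while each of the other 16 libraries had a group mate above 0.95. Differences that moved by over 1.5 times without one of them are given both ways.

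The binding proteins were far more abundant than the ligands. Igfbp7, a binding protein of low affinity for IGF that is abundant around vessels, was the highest of the 10 genes in 18 of 18 libraries, with a mean of 368 ± 130 FPKM (SD, n = 18). Igfbp5 followed at 99.6 ± 40.5 FPKM, then Igfbp6 at 72.8 ± 32.6, Igfbp4 at 68.8 ± 19.6 and Igfbp3 at 66.5 ± 44.0 FPKM. Igfbp5 exceeded Igfbp6 in 14 of 18 libraries, Igfbp6 exceeded Igfbp4 in 12 and Igfbp4 exceeded Igfbp3 in 12, so the order of these 4 changed from library to library. Igf2 averaged 23.4 ± 14.7 FPKM and Igf2r 19.2 ± 3.63 FPKM, with Igf2 the higher in 10 of 18 libraries. Igfbp2 averaged 9.35 ± 8.18 FPKM and Igf1 8.90 ± 3.91 FPKM, with Igfbp2 the higher in only 7 of 18 libraries. Igf1r was lowest, at 3.55 ± 1.56 FPKM.

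The binding proteins together summed to 515 to 1205 FPKM per library, and the 2 ligands to 2.45 to 57.7 FPKM. Igfbp7 made up 42.7% to 69.4% of the binding protein sum, with a median of 51.3%. Control 1 had the largest sum, 1205 FPKM, and the largest Igfbp7 share. D100L150 1 was the only library in which Igfbp3 approached Igfbp7, with 39.4% of the sum against a median of 7.55% over all 18 libraries.

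**Figure D1:**
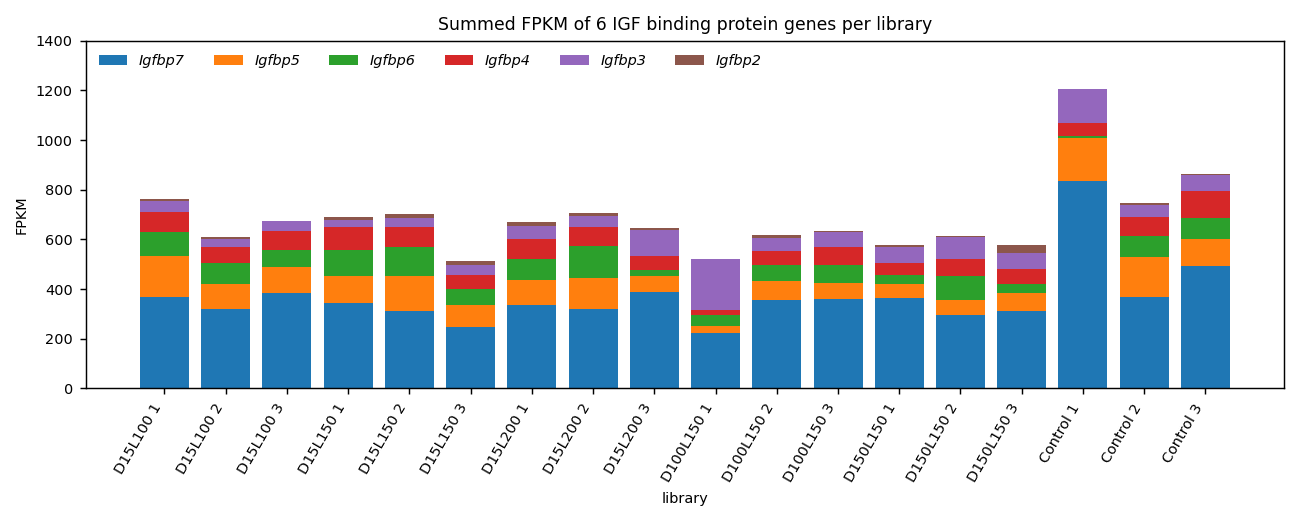
Stacked bars of the FPKM of 6 IGF binding protein genes in each of 18 libraries (x axis, library; y axis, summed FPKM, from 0). Igfbp7 is the largest segment in every bar, the 3 Control bars reach 747 to 1205 FPKM against 515 to 763 FPKM in the 15 spacer bars, and the Igfbp3 segment is widest in D100L150 1.

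The spread of the genes over libraries differed as widely as their levels. Igf2r varied least, by 2.50-fold between its lowest and highest library, followed by Igf1r at 3.52-fold and Igfbp7 at 3.76-fold. Igfbp2 varied by 32.5-fold, Igf2 by 27.1-fold and Igf1 by 21.1-fold. The low end of each of these 3 was the same library, D100L150 1, with 1.03 FPKM of Igfbp2, 1.73 FPKM of Igf2 and 0.711 FPKM of Igf1. The fragments behind those 3 values numbered 57 for Igfbp2, 317 for Igf2 and 196 for Igf1. The part of counting error in them was not tested.

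**Figure D2:**
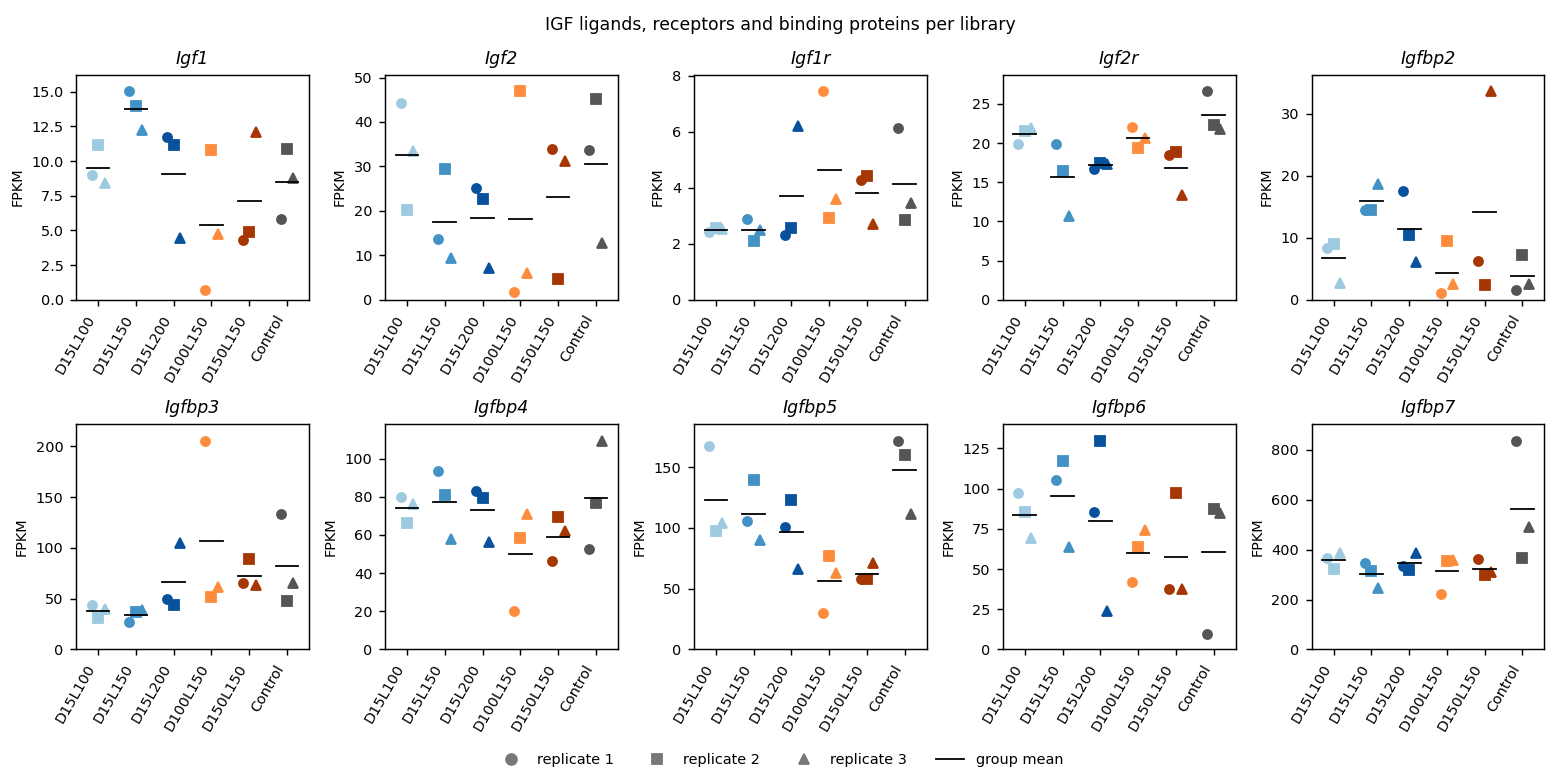
FPKM of each of the 10 genes (1 panel a gene, y axis from 0) in the 3 libraries of each group, marked by replicate number, with the group mean as a line. Igfbp5 in D100L150 and D150L150 flaps lies wholly below Control, Igf1 and Igfbp2 in D15L150 flaps lie wholly above it, and 1 library often sits far from its group mates, as D100L150 1 does for Igf1, Igf1r and Igfbp3.

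The start regions of 5 genes are shown because they carry the patterns described next. Igf1r and Igfbp3 were high in the same libraries, Igf1 was low in those libraries, Igfbp5 was low in D100L150 and D150L150 flaps, and Igfbp7 was the most abundant. The sequences are RefSeq's for GRCm38.p6, 250 bases before to 50 bases after the annotated start, written 5′ to 3′ on the strand of the gene. They are Igf1r at chr7:67952007-67952306 on the plus strand, Igfbp3 at chr11:7213874-7214173 on the minus strand and Igf1 at chr10:87860861-87861160 on the plus strand. Igfbp5 lies at chr1:72874816-72875115 and Igfbp7 at chr5:77407996-77408295, both on the minus strand. Capitals mark matches, on either strand, to TATAAA (the TATA box), GGGCGG (the GC box), TGANTCA (the AP-1 site), and ACGTG and GCGTG (the cores of the hypoxia and xenobiotic response elements).
Igf1r: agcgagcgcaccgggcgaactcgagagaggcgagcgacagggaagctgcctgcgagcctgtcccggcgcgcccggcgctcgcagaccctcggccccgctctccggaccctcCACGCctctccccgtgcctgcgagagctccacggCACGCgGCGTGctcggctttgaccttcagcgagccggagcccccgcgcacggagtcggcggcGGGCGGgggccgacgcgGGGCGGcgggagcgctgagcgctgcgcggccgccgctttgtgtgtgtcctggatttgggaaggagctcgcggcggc
Igfbp3: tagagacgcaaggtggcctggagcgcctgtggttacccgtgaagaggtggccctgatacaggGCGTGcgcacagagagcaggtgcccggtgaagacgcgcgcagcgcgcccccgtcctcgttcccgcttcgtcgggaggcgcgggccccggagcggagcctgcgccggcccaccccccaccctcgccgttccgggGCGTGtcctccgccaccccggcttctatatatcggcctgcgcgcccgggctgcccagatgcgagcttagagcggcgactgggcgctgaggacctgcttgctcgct
Igf1: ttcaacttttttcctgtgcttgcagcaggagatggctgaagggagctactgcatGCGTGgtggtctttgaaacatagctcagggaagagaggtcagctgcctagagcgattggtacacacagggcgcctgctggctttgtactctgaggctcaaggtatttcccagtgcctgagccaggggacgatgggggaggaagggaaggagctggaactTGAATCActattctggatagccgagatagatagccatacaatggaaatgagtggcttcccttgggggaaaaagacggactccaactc
Igfbp5: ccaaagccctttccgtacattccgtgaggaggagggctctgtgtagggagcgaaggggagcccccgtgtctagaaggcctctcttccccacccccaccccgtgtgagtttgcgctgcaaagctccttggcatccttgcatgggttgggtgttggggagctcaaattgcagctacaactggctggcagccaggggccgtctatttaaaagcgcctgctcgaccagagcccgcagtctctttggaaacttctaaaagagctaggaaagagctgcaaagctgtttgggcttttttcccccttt
Igfbp7: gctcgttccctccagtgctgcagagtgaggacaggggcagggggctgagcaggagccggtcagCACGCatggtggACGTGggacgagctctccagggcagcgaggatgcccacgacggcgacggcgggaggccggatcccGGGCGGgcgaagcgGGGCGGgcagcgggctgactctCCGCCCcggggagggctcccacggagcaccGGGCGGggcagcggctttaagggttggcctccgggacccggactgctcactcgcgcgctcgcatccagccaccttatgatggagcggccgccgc
The Igf1r window held 76.0% G and C with 48 CpG dinucleotides, and the Igfbp3 window 71.7% with 37. This was not particular to them. The Igfbp7 window held 73.3% with 33, that of Igf2r 70.7% with 34 and that of Igfbp4 71.3% with 27. Over all 32851 RefSeq promoter windows of the mouse the medians were 52.7% and 7. Igf1, at 52.3% and 6 CpG, and Igfbp5, at 56.3% and 10 CpG, lay near those medians. GCGTG occurred at 3 places in the Igf1r window, at 2 each in those of Igfbp3 and Igf2r, and at 1 in that of Igfbp7. Of all windows 32.4% held it. Igf1r also held GGGCGG at 2 places and Igfbp7 at 4, a motif in 35.7% of all windows. The Igf1 window held TGANTCA starting 37 bases before the start, as did 7.81% of all windows, and GCGTG at 1 place. The ACGTG of the Igfbp7 window is found in 19.6% of all windows. The Igfbp5 window matched none of the 5 motifs. TATAAA, present in 13.6% of all windows, was matched in 2 of the 14 windows of the 10 genes, 28 bases before the start of Igfbp4 and 148 bases before that of Igfbp6. CACGTG holds ACGTG on both strands and counts for both, which concerns Igf2r and Igfbp2. A match is a string of letters and not a shown binding site.

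Igfbp5, a matrix-bound binding protein known in skin fibroblasts and in muscle repair, was low in the flaps over D100L150 and D150L150 spacers. It measured 29.9, 76.5 and 62.8 FPKM in D100L150 flaps and 58.2, 58.0 and 71.0 FPKM in D150L150 flaps, against 172, 160 and 111 FPKM in Control flaps. All 6 libraries of these spacer groups lay below the lowest Control library, as 10.8% of all tested genes did for D100L150 and 12.1% for D150L150. In D15L100, D15L150 and D15L200 flaps the means were 123 ± 38.4, 112 ± 25.2 and 96.5 ± 28.3 FPKM (SD, n = 3 each), and each of these groups overlapped with Control. Over D100L150 spacers Igfbp5 was 2.73-fold lower than in Control, a difference of -1.45 ± 0.33 (SE) in log2(FPKM + 1). An adjusted p under 0.05 marked 1 of the 10 genes in this contrast, Igfbp5, and 1.38% of all tested genes, 0.321% downward. Since that value was known when the genes were chosen, nothing is read from the count. D100L150 1 had the lowest Igfbp5 of all libraries, and the difference without it was -1.06. Without both D100L150 1 and Control 1 it was -0.94. The mark was lost in both cases, in 12 of 18 fits that left out 1 library, and under the replicate block, TPM scaling, voom and other settings.

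The D150L150 difference of Igfbp5 was -1.21 ± 0.33, or 2.31-fold lower, and did not pass (limma, adjusted p = 0.0673 over all 13078 genes). In that comparison 2.42% of all tested genes passed, none of them among the 10. Without D100L150 1, which enters only the estimate of the spread, the adjusted p was 0.0355, without Control 1 the difference was -1.09 (adjusted p = 0.253), and over all alternatives it ran from 0.0355 to 0.395. With skeletal muscle markers as a covariate the difference was -0.87 (adjusted p = 0.395), and that of D100L150 was -1.21. The same libraries also differed in tissue makeup. The 10 basal keratinocyte markers summed to 5108 to 6258 FPKM in D100L150 flaps and to 6200 to 7493 FPKM in D150L150 flaps, against 1325 to 3714 FPKM in Control flaps. The 10 muscle regeneration markers summed to 55.5 to 288 FPKM in D100L150 flaps and to 63.0 to 254 FPKM in D150L150 flaps, against 155 to 386 FPKM in Control flaps. The part of these 2 marker lists in the Igfbp5 difference was not tested. In RNA from whole tissue, fewer cells of a type and less RNA per cell cannot be told apart.

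**Figure D3:**
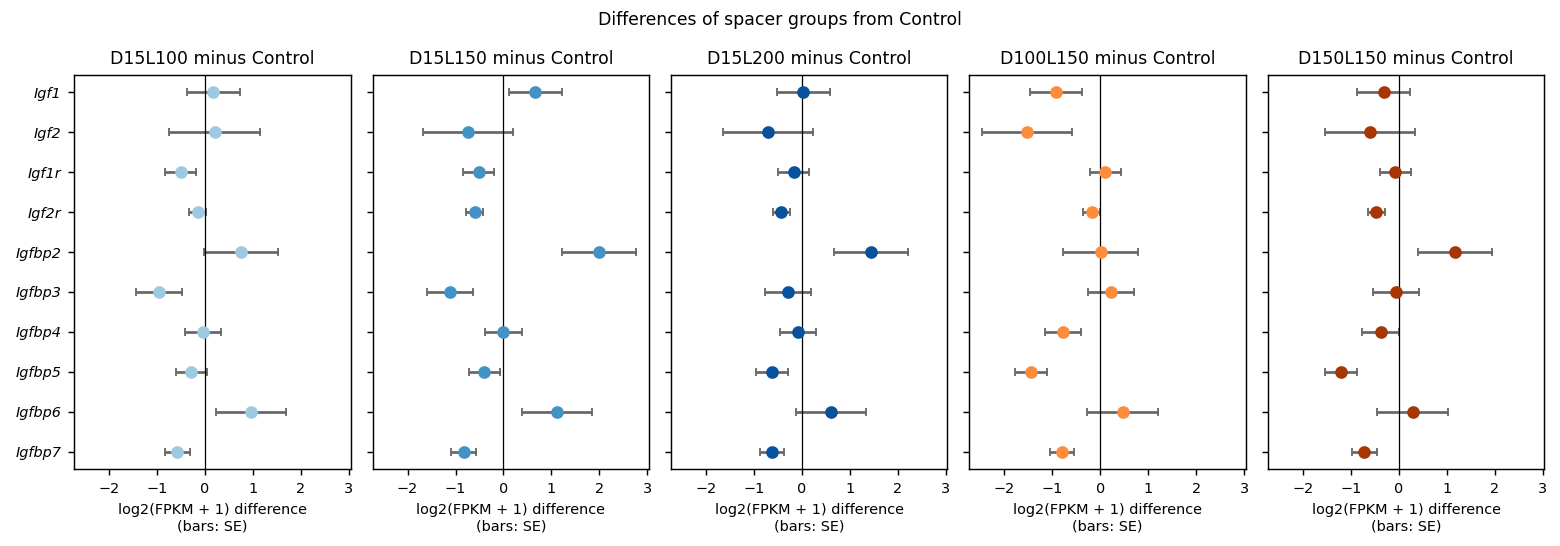
Difference of each spacer group from Control in log2(FPKM + 1) for the 10 genes (points; bars are SE from limma, n = 3 libraries a group). Igfbp5 stands at -1.45 in D100L150 and -1.21 in D150L150, Igfbp7 lies left of 0 in all 5 panels, and the widest bars are those of Igf2.

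Igfbp7 was lower than Control on average in each of the 5 spacer groups, but 1 Control library set much of that distance, and all comparisons with Control share the same 3 Control libraries. It measured 222, 357 and 360 FPKM in D100L150 flaps, 363, 297 and 312 FPKM in D150L150 flaps and 345, 313 and 246 FPKM in D15L150 flaps, against 836, 367 and 492 FPKM in Control flaps. These 3 spacer groups lay below Control without overlap, as did 10.8%, 12.1% and 14% of all tested genes in the same order. D15L100, at 322 to 385 FPKM, and D15L200, at 320 to 387 FPKM, overlapped with Control. The mean of the spacer groups differed from Control by -0.71 ± 0.20 on the log2 scale and did not pass (limma, adjusted p = 0.0627, where 3.56% of all tested genes passed). None of the 10 genes passed in this comparison. Without Control 1 the Igfbp7 difference was -0.39 (adjusted p = 0.461), without both libraries that stood apart -0.34, and without Control 2 -0.98 (adjusted p = 0.0321). Over the alternatives the adjusted p ran from 0.0321 to 0.461. The 11 pericyte and smooth muscle markers were led by Des, Acta2 and Tagln, and Des also stands on the skeletal muscle list. These 11 markers summed to 388 to 1266 FPKM over all spacer groups, against 955 to 1721 FPKM in Control flaps. The highest spacer value, 1266 FPKM in D15L100 3, came with the highest skeletal muscle sum of all libraries, 20483 FPKM. The 13 endothelial markers summed to 160 to 427 FPKM over all spacer groups, against 948, 272 and 450 FPKM in Control flaps. Averaged over the spacer groups, all 13 endothelial markers were lower than in Control, by a median of -0.80, and all 11 pericyte and smooth muscle markers, by a median of -0.59, beside -0.04 over all tested genes. The mean endothelial level in log2(FPKM + 1) was 5.71, 4.08 and 4.73 in Control flaps, against 3.37 to 4.55 in spacer flaps. Control 1 thus set much of the endothelial distance too, and Control 2 lay inside the spacer range. The part of either list in the Igfbp7 difference was not tested.

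Igf2r was the steadiest gene and also lay slightly lower over most spacers. It measured 19.8, 16.4 and 10.6 FPKM in D15L150 flaps, 16.7, 17.4 and 17.3 FPKM in D15L200 flaps and 18.4, 18.8 and 13.3 FPKM in D150L150 flaps, against 26.6, 22.3 and 21.8 FPKM in Control flaps. None of these 9 spacer libraries reached the lowest Control library, while D15L100 and D100L150 overlapped with Control. The differences from Control were -0.60 ± 0.18 for D15L150 (limma, adjusted p = 0.108), -0.43 ± 0.18 for D15L200 (adjusted p = 0.228) and -0.47 ± 0.18 for D150L150 (adjusted p = 0.156), so none passed. Without Control 1 they were -0.51, -0.35 and -0.38. In D15L200 against Control, 1.56% of all tested genes passed and none of the 10. Igf2r was the only one of the 10 whose D15L200 libraries did not overlap with Control, and 13.8% of all tested genes lay wholly lower in that comparison. In D15L150 and D150L150 against Control the shares wholly lower were 14% and 12.1%. Igf1r measured 2.41, 2.57 and 2.53 FPKM in D15L100 flaps, against 6.15, 2.85 and 3.45 FPKM in Control flaps. The D15L100 libraries were all below Control, but by -0.50 ± 0.32 on the log2 scale (limma, adjusted p = 1.00), and by -0.24 without Control 1.

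D15L150 flaps had the most genes of the set outside the Control range. Igf1 measured 15.04, 13.9 and 12.2 FPKM in D15L150 flaps, against 5.85, 10.9 and 8.78 FPKM in Control flaps. Igfbp2, which binds IGF2 preferentially, measured 14.5, 14.5 and 18.7 FPKM in D15L150 flaps, against 1.59, 7.22 and 2.48 FPKM in Control flaps. Igfbp3, the main carrier of IGF in blood, measured 27.3, 36.5 and 39.0 FPKM in D15L150 flaps, against 134, 47.4 and 65.0 FPKM in Control flaps. Igf1 and Igfbp2 thus lay wholly above Control, as 12.4% of all tested genes did. Igfbp3, Igf2r and Igfbp7 lay wholly below it, as 14% did. The log2 differences were 2.00 ± 0.77 for Igfbp2 (limma, adjusted p = 0.177), -1.11 ± 0.48 for Igfbp3 (adjusted p = 0.221), -0.83 ± 0.26 for Igfbp7 (adjusted p = 0.114) and 0.67 ± 0.55 for Igf1 (adjusted p = 0.512). None of the 10 genes passed, and 0% of all tested genes did, although 19.8% had an unadjusted p under 0.05. Without Control 1 the differences were 1.65 for Igfbp2, -0.69 for Igfbp3, -0.51 for Igfbp7 and 0.45 for Igf1. In D15L100 flaps Igfbp3, at 44.2, 30.8 and 39.7 FPKM, and Igf1r were wholly below Control, as 3.97% of all tested genes were, and again 0% of all genes passed.

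The other ligand and binding proteins showed no group that kept clear of Control. Igf2, an imprinted fetal growth factor, measured 44.4, 20.1 and 33.5 FPKM in D15L100 flaps, 1.73, 46.9 and 5.98 FPKM in D100L150 flaps and 33.8, 4.60 and 31.2 FPKM in D150L150 flaps, against 33.8, 45.1 and 12.7 FPKM in Control flaps. Its libraries within 1 group differed by up to 27.1-fold, more than any 2 group means did. Igfbp4, an inhibitory binding protein cut by the protease PAPP-A, ran from 20.2 to 93.5 FPKM over spacer flaps and from 52.5 to 109 FPKM over Control flaps. Igfbp6, which prefers IGF2, ran from 24.1 to 130 FPKM over spacer flaps, against 9.62, 87.5 and 84.6 FPKM in Control flaps. The lowest value of all 18 libraries thus belongs to Control 1, and the other Control values lay inside the spacer range.

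Between spacer groups, the most genes of the set, 5 of 10, lay without overlap in D100L150 against D15L150 flaps. Igf1 measured 0.711, 10.8 and 4.76 FPKM in D100L150 flaps, against 15.04, 13.9 and 12.2 FPKM in D15L150 flaps. Igfbp5 measured 29.9, 76.5 and 62.8 FPKM in D100L150 flaps, against 106, 139 and 89.8 FPKM in D15L150 flaps. Igfbp3 measured 205, 51.9 and 61.7 FPKM in D100L150 flaps, against 27.3, 36.5 and 39.0 FPKM in D15L150 flaps. Igf1, Igfbp2 and Igfbp5 were wholly lower in D100L150, as 7.48% of all tested genes were. Igf1r and Igfbp3 were wholly higher, as 9.57% were. The differences were -1.59 ± 0.55 for Igf1, -1.996 ± 0.77 for Igfbp2, -1.05 ± 0.33 for Igfbp5 and 1.34 ± 0.48 for Igfbp3 on the log2 scale, each with an adjusted p of 0.412 (limma). Without D100L150 1 they were -0.83, -1.47, -0.66 and 0.72. Markers of several cell types moved in the same pair. All 14 fibroblast markers were lower in D100L150 flaps (median -0.92), as were all 9 adipocyte markers (median -0.67), while the 7 tested neutrophil markers were higher (median 1.72), beside a median of -0.02 over all tested genes. The fibroblast list averaged 5.60, 7.34 and 6.80 in D100L150 flaps, against 7.63, 7.59 and 7.27 in D15L150 flaps, in log2(FPKM + 1). The neutrophil list averaged 7.87, 5.48 and 6.07, against 5.50, 4.25 and 4.64, and the adipocyte list 2.51, 4.52 and 3.35, against 4.39, 4.60 and 4.78. D100L150 1 thus lay farthest from D15L150 flaps in each of these lists. None of these markers passed, and their part in the differences was not tested. In this and the other 5 pairs of spacer groups, and in the 2 tests over series of 3 groups, 0% of all tested genes passed. At an unadjusted p under 0.05, 5 of the 10 genes and 11.4% of all tested genes stood in D100L150 against D15L150. Igfbp5, whose low D100L150 level was known beforehand, is among these 5.

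D150L150 flaps differed from D15L150 flaps in the same direction at 3 of these genes. Igf1 was lower by -0.98 ± 0.55 and Igfbp5 by -0.81 ± 0.33, while Igfbp3 was higher by 1.05 ± 0.48, and none of them overlapped between the groups. Wholly lower genes made up 4.24% and wholly higher genes 8.20% of all tested in that pair, and the adjusted p was 0.890 for each of the 3 (limma). These comparisons share the D15L150 libraries. Over D15L150, D100L150 and D150L150 the F statistics of Igfbp5 (5.61), Igfbp3 (4.31) and Igf1 (4.24) had unadjusted p of 0.0161, 0.0347 and 0.0361, and none passed (limma, adjusted p = 0.743 each). The low D100L150 level of Igfbp5 was known when the genes were chosen, so its F is only a description. D100L150 1 held the lowest Igfbp5 and Igf1 and the highest Igfbp3 of all libraries, and F without it is not given. Over D15L100, D15L150 and D15L200 the largest F was that of Igf2r, 3.38 (unadjusted p = 0.0630, adjusted p = 0.993).

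Among the groups whose names begin with D15, Igf2r was lower in D15L150 (difference -0.45 ± 0.18) and D15L200 (-0.28 ± 0.18) than in D15L100 flaps, without overlap. Wholly lower genes made up 6.74% and 7.94% of all tested in these pairs, and neither difference passed (limma, adjusted p = 0.885 and 0.849). Igf1 and Igfbp2 were wholly higher in D15L150 than in D15L100 flaps, by 0.49 ± 0.55 and 1.26 ± 0.77, as 3.34% of all tested genes were. In D15L200 against D15L150 flaps Igf1 was wholly lower (-0.64 ± 0.55, as 3.77% of all genes) and Igfbp3 wholly higher (0.83 ± 0.48, as 2.18%). In D150L150 against D100L150 flaps Igf2r was the only member without overlap, lower by -0.29 ± 0.18, as 1.22% of all tested genes were. None of these passed either (limma, adjusted p of 0.885 or more in these 3 pairs).

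The unadjusted p-values show where the 10 genes stood against the background. Of the 10, 1 had an unadjusted p under 0.05 in D15L100, 4 in D15L150, 2 in D15L200 and 3 in D150L150 against Control. Among all tested genes the shares were 3.3%, 19.8%, 17.3% and 20.4% in that order. For the mean of the spacer groups it was 3 of 10, and 22.4% of all. Between spacer groups it was 2 of 10 and 4.95% of all in D150L150 against D15L150, and 1 of 10 and 4.72% in D15L150 against D15L100. None of the 10 stood there in D15L200 against D15L100 (5.18% of all), D15L200 against D15L150 (0.734%) or D150L150 against D100L150 (2.2%). Over D15L150, D100L150 and D150L150 it was 3 of 10, Igfbp5 with its known D100L150 level among them, and 5.74% of all. Over D15L100, D15L150 and D15L200 it was none and 2.89%.

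The clearest structure among the 10 genes lay between libraries rather than between groups. Igf1r and Igfbp3 moved together with Pearson r = 0.91 and Spearman rho = 0.79 over 18 libraries (permutation p = 1e-05, the smallest that 100000 resamples can give, and 3e-04). Igf1 ran against both, with r = -0.86 and rho = -0.75 for Igf1r (permutation p = 2e-05 and 5e-04) and r = -0.86 and rho = -0.79 for Igfbp3 (permutation p = 4e-05 and 2.1e-04). Adjusted over the 45 pairs, the p of r was 4.5e-04 for Igf1r with Igfbp3 and for Igf1 with Igf1r, and 6e-04 for Igf1 with Igfbp3. Without the 2 libraries farthest from the median these r were 0.84, -0.81 and -0.79. Of deviations from the group means they were 0.88 (adjusted permutation p = 0.0652), -0.88 (0.0175) and -0.87 (0.0175). Without D100L150 1 and Control 1 they were 0.81, -0.84 and -0.78. The libraries share depth and tissue makeup, so a joint movement of 2 genes says nothing of one acting on the other.

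Of the 45 pairs 17 passed an adjusted p of 0.05, 7 positive and 10 negative. Igf1 and Igfbp2 had r = 0.75 and rho = 0.87 (permutation p = 1e-04 and 1e-05, adjusted p of r = 0.00112), with r = 0.79 within groups. Igf2 and Igfbp5 had r = 0.71 and rho = 0.54 (permutation p = 0.00108 and 0.0234, adjusted p of r = 0.00652), but r = 0.45 without the 2 farthest libraries, so the relation rests in part on those. Igf2r and Igfbp2 had r = -0.73 and rho = -0.73 (permutation p = 2.7e-04 and 8.9e-04, adjusted p of r = 0.00243), and r = -0.66 without the 2 farthest. Igfbp4 and Igfbp6 had r = 0.54, short of an adjusted p of 0.05 (permutation p = 0.0398, adjusted p = 0.0779), but rho = 0.78 (permutation p = 1.7e-04) and r = 0.76 without D100L150 1 and Control 3. Igfbp2 and Igfbp5, which lie tail to tail on chromosome 1 with 5457 bases between their ends, had r = 0.26 and rho = 0.21 (permutation p = 0.296 and 0.410).

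**Figure D4:**
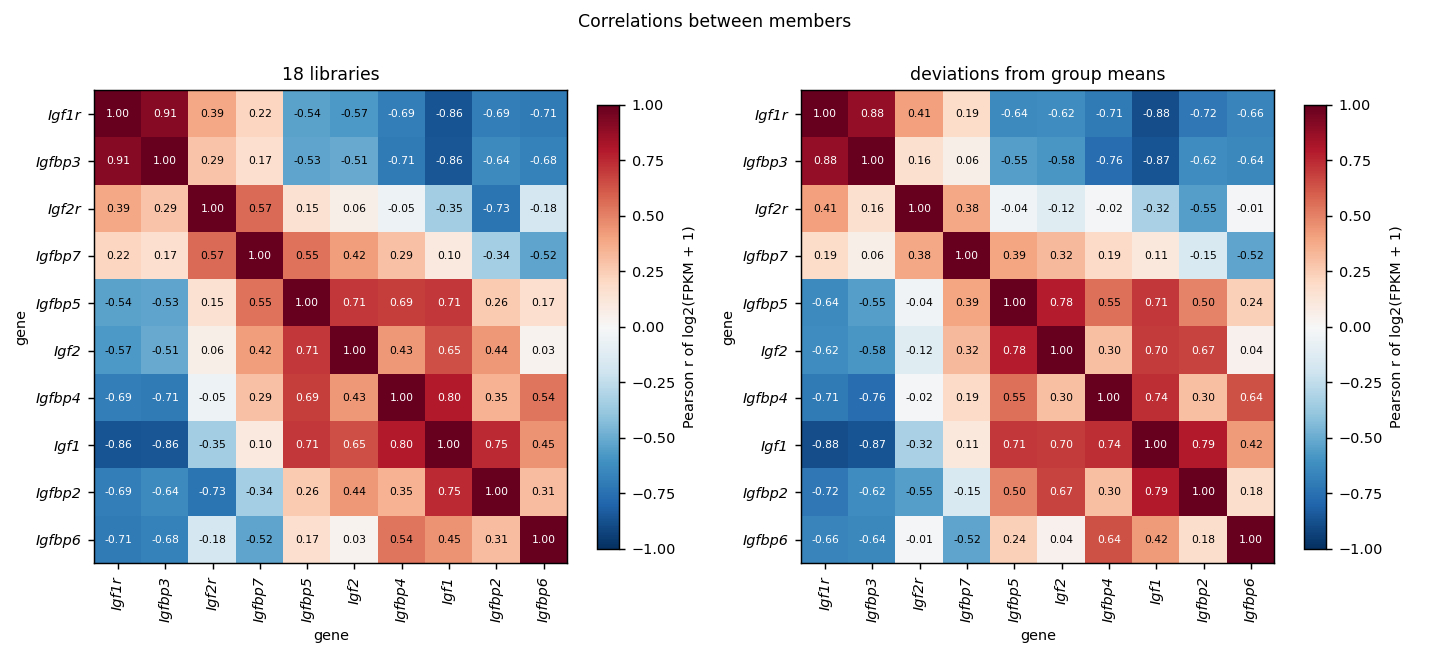
Pearson r of log2(FPKM + 1) for each pair of the 10 genes, over 18 libraries (left) and of deviations from the group means (right). Igf1r and Igfbp3 form a block with r = 0.91 that runs against Igf1 at -0.86, and the same block stands in the right panel at 0.88, -0.88 and -0.87.

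Most of these genes moved with marker genes of a cell type. Lists of markers for 12 cell types or tissues gave 120 relations with the 10 genes, of which 51 passed an adjusted p of 0.05, 29 positive and 22 negative. Igf1r followed the neutrophil list, led by S100a9, S100a8 and Il1b, with r = 0.95 and rho = 0.92 (permutation p = 1e-05 and 2e-05, adjusted p of r = 2e-04). The r was 0.90 without the 2 farthest libraries and 0.96 within groups. The neutrophil markers summed to 826 to 10306 FPKM over spacer flaps, against 1075 to 6512 FPKM over Control flaps. D100L150 1 and D15L200 3 held the highest neutrophil levels, and with 7.45 and 6.21 FPKM also the highest Igf1r. Igfbp3 followed the same list with r = 0.81 and Igf1 ran against it with r = -0.88 (permutation p = 6e-05 and 1e-05). Mpo, a defining neutrophil marker made in immature cells, was at 0 in at least 1 of the 18 libraries.

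Igf1 moved with the fibroblast list, led by Col3a1, Col1a1 and Col1a2, with r = 0.90 and rho = 0.76 (permutation p = 2e-05 and 4.6e-04), while Igfbp3 ran against it with r = -0.90 and rho = -0.78 (permutation p = 1e-05 and 3e-04). Without the 2 farthest libraries these r were 0.77 and -0.74. Igf2 moved with the muscle regeneration list, led by Myog, Myh3 and Myh8, with r = 0.93 and rho = 0.93 (permutation p = 1e-05 for both, adjusted p of r = 2e-04). Here r was 0.87 without the 2 farthest libraries and 0.95 within groups. Igfbp5 shared that list at r = 0.79 (permutation p = 1.2e-04, within groups 0.80) and ran against the basal keratinocyte list at r = -0.74 (permutation p = 4.4e-04, within groups -0.53). Igfbp2 had r = 0.84 with the adipocyte list and -0.82 with the endothelial list (permutation p = 2e-05 and 1e-05). Igfbp6 had r = 0.84 with macrophages (permutation p = 1.3e-04), Igfbp4 0.86 with fibroblasts (permutation p = 1e-04) and Igfbp7 0.79 with pericytes and smooth muscle (permutation p = 1.1e-04). In the same pairs Spearman rho was 0.72 and -0.82 for Igfbp5, 0.81 and -0.92 for Igfbp2, 0.70 for Igfbp6, 0.82 for Igfbp4 and 0.86 for Igfbp7. For the neutrophil list it was 0.71 with Igfbp3 and -0.80 with Igf1. Without the 2 farthest libraries r was 0.63 and -0.82 for Igfbp5, 0.79 and -0.84 for Igfbp2, 0.65 for Igfbp6, 0.71 for Igfbp4 and 0.72 for Igfbp7, and for the neutrophil list 0.68 with Igfbp3 and -0.82 with Igf1. The adjusted p over the 120 relations was at most 0.00293 for r and at most 0.00869 for rho in all relations named here. The pericyte and smooth muscle list shares its highest gene, Des, with the skeletal muscle list.

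**Figure D5:**
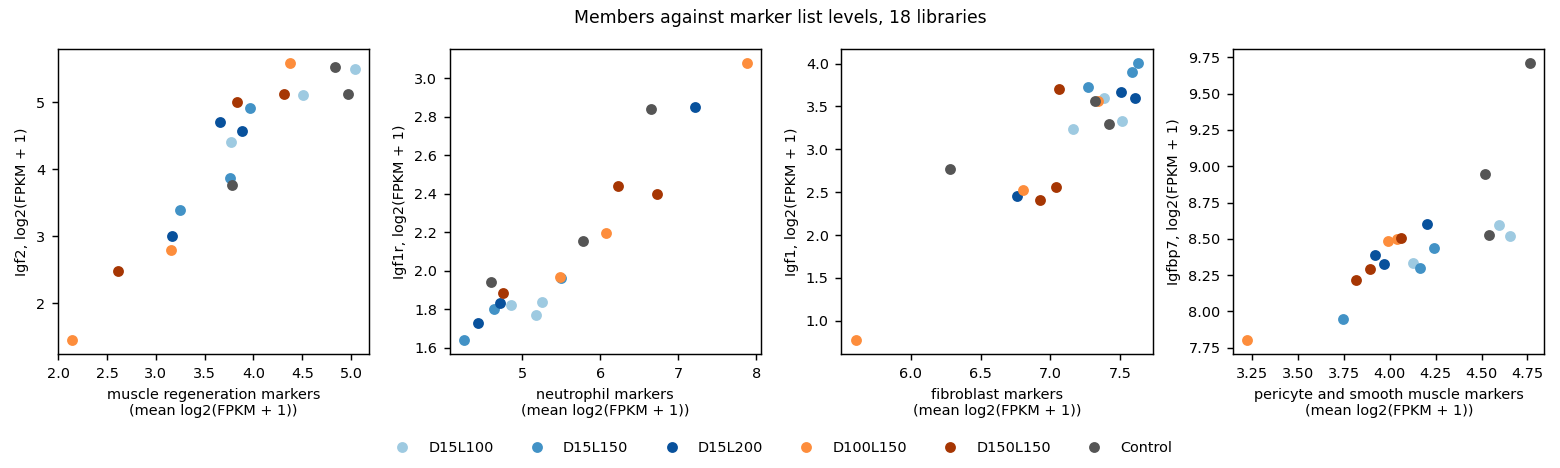
Level of 4 genes against the mean level of a marker list in 18 libraries, both in log2(FPKM + 1), coloured by group. Igf2 against muscle regeneration (r = 0.93), Igf1r against neutrophils (0.95), Igf1 against fibroblasts (0.90) and Igfbp7 against pericytes and smooth muscle (0.79) each rise together, with D100L150 1 at one end of every panel and Control 1 alone at the top of the Igfbp7 panel.

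The genes most alike in pattern, taken from all 13078 tested by r over 18 libraries, told the members apart. Igf2 was closest to Myh3, the embryonic myosin heavy chain (r = 0.99), Actc1, cardiac actin, which regenerating muscle also makes (0.98), and Capn6 (0.97). Igf1r was closest to Chd7 (0.98), the phosphate transporter Slc20a1 (0.97) and Inhba (0.97), the activin A subunit, which also stood near Igfbp3 (0.93), behind Kcne3 (0.95) and the stress-induced Ddit4 (0.94). Igf1 was closest to Clec11a, Ace and Lum (0.94 each), Lum being a dermal proteoglycan that also stands on the fibroblast list. Igfbp6 was closest to Dpp4 (0.97), Folr2 (0.95) and Tnxb (0.95), and Dpp4 too is on the fibroblast list. Igfbp2 was closest to Gpld1, Rnase1 and Itgbl1 (0.95, 0.95 and 0.94), and Igfbp5 to Fgf13, Aox1 and P2rx5 (0.93 each). Igfbp4 was closest to Rhobtb2, Ctdsp1 and Rab3il1 (0.91 each), Igf2r to Anxa6, Ripor1 and Mef2d (0.91, 0.91 and 0.90) and Igfbp7 to Hrct1, Zfp74 and Tspan17 (0.93, 0.92 and 0.92). These are the highest of many values, and they describe likeness in these libraries.

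The genome around Igf2 offers a further comparison. H19, the imprinted RNA that lies downstream of Igf2 on chromosome 7 and is expressed from the other parental allele, was very abundant, at 170 to 1125 FPKM over the spacer flaps, against 679 to 1196 FPKM in Control flaps. Igf2 and H19 had r = 0.77 and rho = 0.66 over 18 libraries (permutation p = 2.3e-04 and 0.00336, 1 relation computed), with r = 0.58 without the 2 farthest libraries and 0.78 within groups. It measured 674, 522 and 273 FPKM in D15L200 flaps, 170, 566 and 528 FPKM in D100L150 flaps and 354, 262 and 447 FPKM in D150L150 flaps. All 9 values lay below the lowest Control library, as did 13.8%, 10.8% and 12.1% of all tested genes in those comparisons. D15L100 flaps, at 557 to 1125 FPKM, and D15L150 flaps, at 280 to 839 FPKM, overlapped with Control. The difference of H19 from Control was -1.36 ± 0.52 in D150L150 flaps and did not pass (limma, adjusted p = 0.162). Over 27 alternatives it ran from -1.55 to -0.545, with adjusted p from 0.0953 to 0.660. Antisense genes overlap Igf1 and Igf2 by 5117 and 7124 bases. Igf1os held 0 to 5 fragments per library and Igf2os 1 to 23, far below the 196 or more of Igf1 and the 317 or more of Igf2. No source used here states whether counting used strand, so reads of overlapping strands cannot be told apart.

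Beyond the 10 genes, the pathway list held 71 others, of which 69 were in the table and 58 were tested. In D150L150 against Control 1 of the 58 passed, upward, as 2.03% of all tested genes did, and in D15L200, D15L150 and D15L100 against Control none did. That gene was Gab1, a docking protein below receptor tyrosine kinases, at 3.43 ± 0.19 FPKM in D150L150 flaps and 2.25 ± 0.26 FPKM in Control flaps (SD, n = 3 each). The difference was 0.45 ± 0.11 on the log2 scale (limma, adjusted p = 0.0427), and for the mean of the spacer groups 0.32 ± 0.08 (adjusted p = 0.0485), where 2.84% of all tested genes passed upward. The D150L150 call held in 10 of 27 alternatives, with adjusted p from 0.0168 to 0.355, and without Control 1 the difference was 0.40 (adjusted p = 0.189). The call for the mean of the spacer groups held in 7 of 26 alternatives, with adjusted p up to 0.358, and was lost without Control 1 (0.27, adjusted p = 0.337). Pdpk1, the kinase that activates AKT, differed by 0.45 ± 0.11 between D100L150 and Control flaps, and Ptpn1, a phosphatase of the insulin receptor, by 0.56 ± 0.17, both given as a description. Irs1, the adaptor of the IGF1 and insulin receptors, measured 0.218 to 1.82 FPKM in D100L150 flaps, against 2.90 to 4.68 FPKM in D15L150 flaps (difference -1.21 ± 0.36, limma, adjusted p = 0.412, and -0.81 without D100L150 1). It was wholly lower there, as 7.48% of all tested genes were. Insr, the insulin receptor, was lower by -0.35 ± 0.11 in the mean of the spacer groups than in Control (adjusted p = 0.101). The median difference of the 58 genes lay between -0.12 and 0.03 in all 12 pairwise comparisons, close to that of all tested genes, which lay between -0.06 and 0.05.

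Of the binding protein proteases and their inhibitors, 10 of 14 were tested and none passed in a tested comparison. Ctsd, the lysosomal protease cathepsin D, ran from 934 to 1161 FPKM in D100L150 flaps, against 758 to 845 FPKM in D15L150 flaps (difference 0.35 ± 0.13, limma, adjusted p = 0.412). Plau, urokinase, ran from 45.7 to 89.2 FPKM in D100L150 flaps, against 39.8 to 44.3 FPKM in D15L150 flaps (0.51 ± 0.19, adjusted p = 0.412, and 0.23 without D100L150 1). Stc2, an inhibitor of PAPP-A, differed by 0.54 ± 0.24 between D150L150 and Control flaps (adjusted p = 0.213, and by 0.24 without Control 1), and the protease Prss23 by -0.65 ± 0.31 between D100L150 and Control flaps, given as a description. All 7 genes of the growth hormone axis were tested and none passed. Ghr, the growth hormone receptor, differed by -0.86 ± 0.33 and Socs3, a feedback inhibitor of cytokine signalling, by 1.22 ± 0.67 between D100L150 and D15L150 flaps (adjusted p = 0.412 and 0.476). Without D100L150 1 these were -0.49 and 0.69. Igfals, which holds IGF in blood complexes, stayed at 0.091 to 1.38 FPKM, and Igfbp1 is not analysed here.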

How the data were processed

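Total RNA of mouse skin flaps was sequenced in 18 libraries. The deposited table holds FPKM, fragments per kilobase scaled to sequencing depth, computed by the authors for 27743 genes. Per the submitters' processing notes, fastp, HISAT2, HTSeq, R 3.2.0 and DESeq2 were used with the mm10 build, and no roles are given for the tools. No source used here states the annotation or the strand setting. The FPKM steps gave back whole fragments for all 27743 genes within a tolerance of 0.0001 fragments. In a self-test with known fragments 99.83% of 2889 genes came back exactly.

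The 13078 genes that reached 1 FPKM in 3 or more libraries were tested on log2(FPKM + 1) with limma 3.58.1 in R 4.3.3, with 1 mean per group over all 18 libraries, empirical Bayes with trend and robust, and Benjamini-Hochberg adjustment over all genes. Fold changes on this scale understate those of low genes. An adjusted p under 0.05 passed. In a self-test built for D150L150 against Control, 13078 genes were simulated and a small part of them was changed. Of these changes 68.4% at 2-fold and 92.1% at 4-fold were recovered. The simulated noise was independent between genes, without shifts of a whole library such as those of Control 1 and D100L150 1. The shares therefore need not hold for the measured libraries. Correlations used 100000 two-sided permutations. The members, lists and tests were chosen with earlier results of these data known. Named genes were all 10 members, up to 4 genes with the smallest p from each pathway list, the 3 highest markers of a list and the 3 genes most like a member. Alternatives were another pseudocount, no filter, quantile and TPM scaling, the replicate number as a block, only the groups compared, a muscle covariate, voom on the recovered fragments and leaving out each library. Leaving out D100L150 1 and Control 1 together, and quantile scaling of the correlations, were added after seeing the data. Protein sequences, planned as a description, were not used here.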

Additional observations from a re-analysis of the deposited data

How the results depend on the processing

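The Igfbp5 difference of D100L150 against Control was negative in all 27 alternatives. It was known when the genes were chosen, so nothing is read from its kept direction. Of the other differences some kept their direction and some did not. That of Igfbp4 in D15L150 against Control changed in 6 of 27 alternatives, and that of Igfbp2 in D100L150 against Control in 5. D100L150 against Control was known when the genes were chosen, so its count of members past the threshold, 1 (Igfbp5), is a description. It was 0 with no filter, TPM scaling, the replicate block, only the groups compared, the muscle covariate, voom, and without D100L150 1 and Control 1. It was kept at a pseudocount of 0.1 and with quantile scaling, and ran from 0 to 1 when single libraries were left out: it was kept in 6 of 18 such fits (without D15L100 1 or 2, D15L150 3, D15L200 3, D100L150 2 or 3) and lost in the other 12, those without any 1 Control library among them. In D150L150 against Control, and for the mean of the spacer groups, the count of 0 ran from 0 to 1 when single libraries were left out. The cause was not tested. Libraries of the same replicate number were not more alike on average: their deviations had a mean r of -0.0438, those of other numbers 0.024. Only 6 of 18 libraries correlated best with their own number. Single same-numbered pairs ran from -0.657 to 0.53, with 18 of 45 over 0.1, so the mean does not settle whether some libraries were paired. Of the correlations between members 7 of 45 passed on deviations from the group means, 6 of them among the 17, and of those with marker lists 25 of 120, 22 of them among the 51. Without D100L150 1 and Control 1, 14 of 45 passed, only 9 of them among the 17, and 38 of 45 kept their sign. Of the relations with marker lists 34 of 120 passed, 29 of them among the 51.

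Counts over all genes were less stable. Against Control they were 204 for D15L200, 181 for D100L150, 317 for D150L150 and 466 for the mean of the spacer groups. They were 0, 50, 82 and 227 with no filter, 0, 46, 105 and 256 under the block, 22, 23, 0 and 148 with the muscle covariate, and 10, 90, 183 and 285 with voom. Without D100L150 1 and Control 1 they were 0, 0, 1 and 0, and when single libraries were left out they ran from 0 to 303, 351, 481 and 597. The shares of all genes called that the text prints are no firmer than that. With only the groups compared they were 52, 0 and 60 for the first 3. The 0 of D15L150 became 28 at a pseudocount of 0.1, 113 with quantile scaling, 142 with TPM scaling 126 with the covariate, and up to 239 when single libraries were left out. With 3 libraries a group, the number of libraries limits what these tests can show.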

Other observations

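The imprinted growth network, a group of genes expressed from 1 parental allele, was tested at 12 genes, Igf2, Igf2r and H19 among them. In the comparisons other than D100L150 against Control, for which no test is given, 0 of the 12 passed (limma). At an unadjusted p under 0.05, 3 of the 12 did in D150L150 against Control, where 20.4% of all tested genes did. For the mean of the spacer groups it was 4 of the 12, where 22.4% of all tested genes did. In D150L150 against Control all 12 log2 differences were negative, with a median of -0.56 against 0.00 for all tested genes. For the mean of the spacer groups the median was -0.43 against -0.04. In D15L100 against Control it was 0.19 against -0.01, so this group did not share the direction. Mest, an imprinted gene of growing mesoderm, measured 0.845 to 2.70 FPKM in D15L150 flaps and 4.06 to 9.84 FPKM in Control flaps, a difference of -1.36 ± 0.36 (limma, adjusted p = 0.0841). Peg3, an imprinted zinc finger gene, differed by -0.66 ± 0.25 from Control when all spacer groups were averaged (adjusted p = 0.142), and by -0.38 without Control 1. Plagl1, a zinc finger regulator of imprinted genes in mouse, differed by -1.03 ± 0.45 between D100L150 and D15L150 flaps (adjusted p = 0.430), and by -0.44 without D100L150 1. The muscle regeneration markers were lower in the same groups, with all 9 tested markers negative in D150L150 against Control. Their part in these values was not tested.

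Of the 3 genes for IGF2 mRNA binding proteins, which bind the transcripts of Igf2 and many other genes, only Igf2bp2 was tested. It ran from 5.40 to 12.9 FPKM in D100L150 flaps and from 2.68 to 6.17 FPKM in D15L150 flaps, a difference of 0.81 ± 0.31 (limma, adjusted p = 0.412), or 0.50 without D100L150 1. Igf2bp1 reached at most 0.407 FPKM and Igf2bp3 at most 0.286 FPKM in any library.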
